A study of Mus musculus with 6 samples.

Results

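The genes described here encode the B cell receptor complex, its coreceptors and the proteins that act directly downstream of it. They were chosen by name, 48 genes in all, and every one of the 48 is among the 35186 gene symbols of the deposited table. Their messenger RNA was counted in memory B cells of C57BL/6J mice, sorted from the spleen by their binding of NP, a hapten antigen. The wild-type group (WT, 3 libraries) was set against cells labelled Nix-/-Bnip3-/- (DKO, 3 libraries), that is, without 2 mitochondrial outer membrane receptors for mitophagy; Nix is the protein of the gene Bnip3l. Each library came from about 1000 sorted cells. The age of the mice, the immunization, the promoter of any Cre recombinase and the number of animals behind a library were not found in the labels. The p-values thus reflect only how far these libraries spread, and that spread may be technical.

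A B cell senses antigen through membrane immunoglobulin, which cannot signal by itself and relies on the paired chains CD79A and CD79B. On binding, Src family kinases such as Lyn phosphorylate tyrosines in these chains, Syk docks there, and the adaptor Blnk brings Btk to phospholipase C gamma, which opens the calcium and protein kinase C branches. Grb2 with the exchange factors Sos1 and Sos2 leads to Ras. The complex of complement receptor CD21 and CD81 lowers the threshold, while CD22, CD72 and the Fc receptor Fcgr2b recruit phosphatases that raise it. Mouse memory B cells are commonly subdivided by surface CD80, PD-L2 (Pdcd1lg2) and CD73 (Nt5e).

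Depth was low and the groups differed as libraries before any gene was compared. Totals ran from 312908 to 500527 counts in the WT libraries and from 444461 to 517057 in the DKO libraries. One count was worth 1.84 to 5.25 normalized CPM, that is, counts divided by the effective library size, on the CPM scale. Spearman correlations of counts across the 8895 genes tested were 0.152 to 0.157 among WT libraries and 0.466 to 0.496 among DKO libraries, and 0.135 to 0.203 between the groups. Bnip3l had 1, 8 and 0 counts in WT libraries 1 to 3, against 10, 16 and 41 in those labelled DKO, so its mean goes against the labels, while Bnip3 had 25, 62 and 6 against 2, 24 and 11. Neither passed the test, and which exons were removed is not in the labels, so each direction below is between libraries as labelled. Of 11 lists of cell type markers, counting the genes present in the table, the summed normalized CPM of the groups overlapped for 10. Those were lists for B cells (8 genes, 341 to 627 in WT and 313 to 374 in DKO libraries), memory B cells (7 genes, 27.1 to 158 and 129 to 224), plasma cells (6 genes, 94.0 to 273 and 60.0 to 344) and germinal centre B cells (6 genes, 251 to 348 and 209 to 814). They also covered T cells (8 genes, 188 to 987 and 143 to 225), natural killer cells (5 genes, 36.8 to 146 and 114 to 188) and monocytes and macrophages (6 genes, 73.1 to 657 and 396 to 813). The last were neutrophils (6 genes, 174 to 383 and 95.0 to 1214), dendritic cells (5 genes, 204 to 2610 and 385 to 523) and erythroid cells (5 genes, 11.6 to 120.1 and 14.7 to 22.6), in which Hbb-bs and Hba-a2 were at 0 in all libraries. Stromal and endothelial markers (6 genes, none of them at 0 in all libraries) were at 502 to 1008 in WT and 295 to 452 in DKO libraries, with no overlap. Within that list Col1a1 (253 against 19.9 normalized CPM on average) and Cdh5 (171 against 19.4) had higher WT means, while Pecam1 (34.3 against 127) and Kdr (63.7 against 119) had higher DKO means. The part of these cell type markers in the results below was not tested, and in bulk RNA fewer cells of a type and less RNA per cell cannot be told apart.

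More of the 48 genes were seen in the DKO libraries, as was the case for genes in general. At least 1 count was recorded for 40, 38 and 36 members in WT libraries 1, 2 and 3, and for 46, 45 and 44 in DKO libraries 1, 2 and 3. Over all symbols the share with a count was 50.7% to 52.5% in the WT libraries and 67.0% to 70.5% in the DKO libraries. Only 23 of the 48 had a count in every library. After the filter on low counts, 27 members were tested and 21 were not. The filter asks for about 10 counts in at least 3 libraries, so a gene high in 1 group could pass through that group alone. Genes below it held 9 to 112 counts over all 6 libraries, and tested members 55 to 2734.

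**Figure D1:**
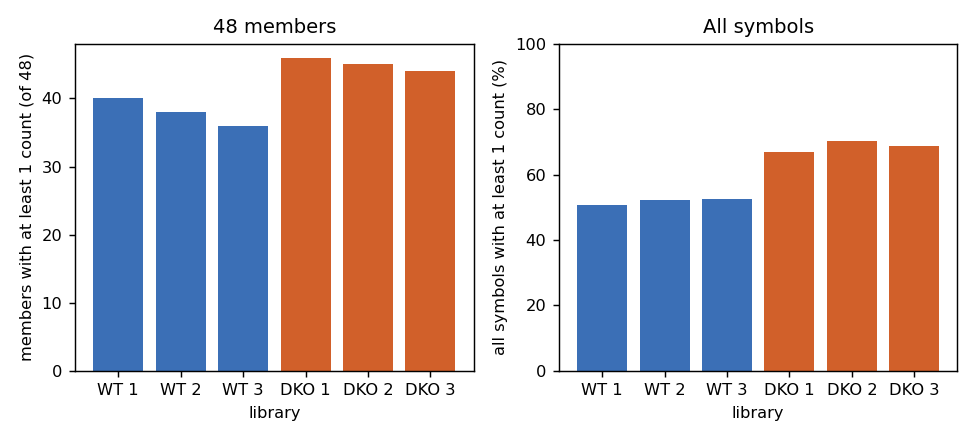
Number of the 48 members (left) and percentage of all symbols (right) with at least 1 count, by library, with WT in blue and DKO in orange. WT libraries held 36 to 40 members and DKO libraries 44 to 46, and the shares over all symbols were 50.7% to 52.5% against 67.0% to 70.5%.

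By edgeR's quasi-likelihood test no member reached an adjusted p under 0.05, and none of the 8895 genes did (0% of all genes tested). At an unadjusted p under 0.05, 3 of the 27 tested members were higher in the DKO libraries (11.1%, against 5.49% of all genes tested) and 4 were lower (14.8%, against 6.59%). The 3 were Sos1, Fcrl1 and Themis2, and the 4 were Cd9, Cd86, Plcg1 and Cblb. DESeq2 called 1 member, Plcg1, as lower (adjusted p = 0.0187), beside 2.57% of genes called higher and 4.51% called lower among the 8488 with an adjusted p. Limma-voom called 0 members and 0% of genes.

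The signs were divided. Of the 27, 14 had a log2 fold change, DKO against WT, above 0 (51.9%, against 45.5% of all genes tested) and 13 below, with a median of 0.10 beside -0.17 for all genes tested. Scaling moves all of these together: with library totals alone the median of all genes was 0.62, and 18 of the 27 members lay above 0 (66.7%, against 64.3% of all genes). With the size factors of DESeq2 the members' median was -0.0302, and 13 lay above 0 (48.1%, against 42.1%). In 4 tested members every DKO library lay above every WT library (14.8%, against 12.8% of all genes tested), and in 5 every DKO library lay below (18.5%, against 6.39%). With library totals alone these counts were 11 and 2. The shares of all genes tested were computed for normalized CPM only, so the 11 and 2 are not a result about the members. The 11 then took in Ms4a1, Fcrl1, Syk, Plcg2, Themis2, Ptprc and Ptpn22, whose groups overlapped in normalized CPM. Below, overlap refers to normalized CPM unless a scaling is named. For 4 of the 9 genes apart in normalized CPM, the groups stayed apart under each of the 5 scalings run. These were Prkcb and Sos1 on the higher side and Cr2 and Plcg1 on the lower side. The share of all genes tested that stay apart under each of the 5 scalings was not computed.

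**Figure D2:**
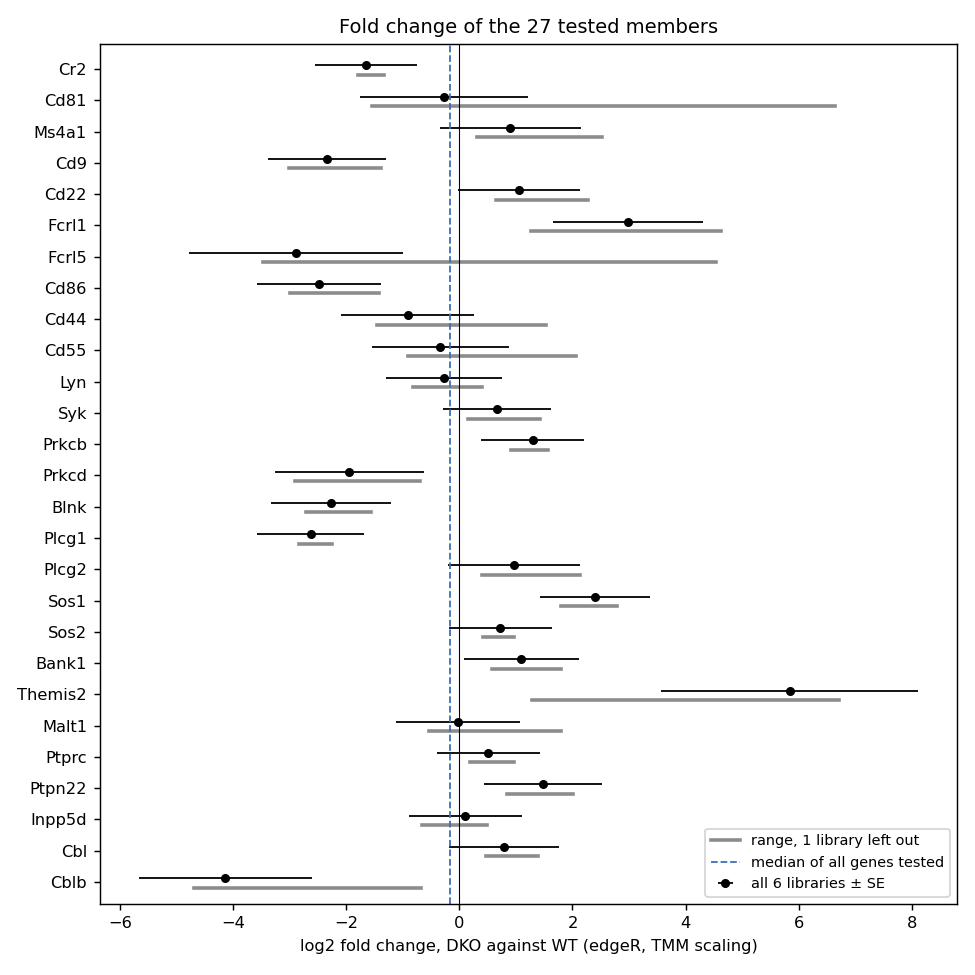
Log2 fold change, DKO against WT, of the 27 tested members in order of role, with points and black bars for all 6 libraries ± SE, grey bars for the range when each library was left out in turn, and a dashed line at the median of all genes tested (-0.17). The grey bars of Cr2, Prkcb, Plcg1, Sos2 and Ptprc, the 5 that moved by no more than 1.5-fold, stay on 1 side of 0, while those of Cd81 (-1.54 to 6.64) and Fcrl5 (-3.47 to 4.54) cross it widely.

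The signalling chains of the receptor itself were almost absent from the counts. Cd79a (mm10 chromosome 7, 24897381 to 24902197) had 3, 0 and 0 counts in WT libraries against 0, 2 and 4 in DKO libraries. Cd79b (chromosome 11, 106311341 to 106314762) had 0, 1 and 6 against 2, 4 and 5. The groups overlapped for both genes and neither was tested. Per kilobase of exon, Cd79a had a mean level of 3.10 normalized CPM over the 6 libraries and ranked 40 among the 48 members, and Cd79b had 6.63 and ranked 30. These levels were at or above 35.3% and 56.3% of the 31032 symbols with 1 annotated gene. In libraries labelled as memory B cells, these genes, which define B cells, had 0 to 6 counts each.

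Longer genes had higher levels among the members, as they did among all genes. The Spearman correlation of the mean normalized CPM with exonic length was 0.56 across the 48 members and 0.68 across the 31032 symbols; with the span of the gene, introns included, it was 0.56 and 0.64. The points share the same 6 libraries. Levels are compared between genes below only per kilobase of exon.

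Among the coreceptors and tetraspanins, Cr2 and Cd9 were at lower values in every DKO library. Cr2 (chromosome 1, 195136811 to 195176716), which encodes complement receptor CD21, had 261, 155 and 147 normalized CPM in WT libraries against 54.3, 66.3 and 58.1 in DKO libraries. All 3 DKO libraries lay below all WT libraries, at 59.6 ± 6.12 against 188 ± 63.8 normalized CPM (SD, n = 3 each). On the log2 scale the difference was -1.65 (SE 0.90, edgeR adjusted p = 0.455), and it ran from -1.80 to -1.34 with 1 library left out. Cd9, a tetraspanin of marginal zone, B-1 and plasma cells, also lay apart, with 31.3, 139 and 42.0 in the WT libraries against 24.9, 9.20 and 7.75. The fitted log2 difference, DKO against WT, was -2.34 (SE 1.04, adjusted p = 0.406 in edgeR), or -1.39 without WT library 2, and its groups overlapped with library totals alone.

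For Ms4a1 and Cd81 the size of the difference moved with the library left out. Ms4a1, which encodes CD20, had 146, 0 and 42.0 normalized CPM in WT libraries against 95.0, 129 and 126 in DKO libraries. The DKO values were close to each other while the WT values spanned the whole range. EdgeR gave a log2 fold change of 0.90 (SE 1.24, adjusted p = 0.775), and 2.51 without WT library 1. Cd81, a tetraspanin of the CD21 complex, had 30 of its WT counts in library 2 and 0 in the others, and its log2 fold change went from -0.27 to 6.64 without that library. Cd37, a tetraspanin of mature lymphocytes, had 0 to 3 counts in each library and was not tested.

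Of the 3 inhibitory and Fc-type receptors tested, 2 had over 50% of their summed normalized CPM in 1 library. Cd22, the sialic acid binding receptor that recruits the phosphatase encoded by Ptpn6, had 67.9, 15.5 and 10.5 normalized CPM in WT libraries against 83.7, 18.4 and 93.0 in DKO libraries. WT library 1 lay above DKO library 2, so the groups overlapped, and the log2 fold change of 1.06 (SE 1.07, edgeR adjusted p = 0.690) became 2.28 without that WT library. Fcgr2b, the inhibitory receptor for IgG complexes, had 1, 0 and 6 counts against 72, 4 and 7, and was not tested. A share of 73.9% of its summed normalized CPM was in DKO library 1.

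Fcrl1 and Fcrl5, Fc receptor-like genes of B cells on chromosome 3 (87376387 to 87402934 and 87435773 to 87500678), each had 1 library far above the others. Fcrl1 had 5.22, 77.3 and 15.8 normalized CPM in WT libraries against 118, 47.9 and 631 in DKO libraries. Its log2 fold change of 2.98 (SE 1.33, edgeR adjusted p = 0.407) was 1.27 without DKO library 3, and was 4.62 without WT library 2. Fcrl5 had 1358, 0 and 5.25 against 67.9, 42.3 and 73.6, so that the DKO libraries lay between the extremes of the WT libraries. This came to -2.88 on the log2 scale (SE 1.89, edgeR adjusted p = 0.525) and turned to 4.54 without WT library 1. The remaining genes of the group were below the filter. Fcer2a, the low-affinity IgE receptor CD23, had 6, 1 and 1 counts against 1, 1 and 1. Cd72, an inhibitory C-type lectin, had 0 to 3 counts in each library, and Fcrla, an Fc receptor-like protein that stays inside the cell, 0 to 10.

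The surface markers used to subdivide memory B cells were all below the filter. Cd80, a ligand of CD28, had 5, 1 and 0 counts in WT libraries against 6, 1 and 8 in DKO libraries. Pdcd1lg2, a ligand of the receptor PD-1, had 1, 0 and 3 against 12, 1 and 7. Nt5e, the ectoenzyme CD73 that forms adenosine, had 1, 6 and 0 against 14, 8 and 31. In normalized CPM these were 9.99 ± 14.1 against 10.3 ± 7.39 for Cd80, 6.99 ± 8.03 against 14.2 ± 12.7 for Pdcd1lg2 and 9.47 ± 12.2 against 35.5 ± 22.9 for Nt5e (SD, n = 3 each). The groups overlapped for all 3, although Nt5e lay higher in every DKO library with library totals alone. These 3 genes were outside the main test, and the edgeR fit without the filter called 0 of the 48 members. Cd38, an NAD-consuming ectoenzyme that murine memory B cells carry, had 8, 0 and 21 counts against 5, 7 and 6, with the WT libraries on both sides of the DKO libraries. Cd24a, the small glycoprotein called heat-stable antigen, had 0, 0 and 1 counts against 3, 15 and 4.

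Of the activation and adhesion markers, all 3 that were tested had log2 fold changes below 0, each with 1 WT library above the rest. Cd86, a costimulatory ligand (chromosome 16, 36603869 to 36666081), had 172, 58.0 and 488 normalized CPM in WT libraries against 20.4, 68.1 and 38.7 in DKO libraries. DKO library 2 lay above WT library 2. On the log2 scale the difference was -2.48 (SE 1.09, edgeR adjusted p = 0.404), or -1.43 without WT library 3. Cd44, the hyaluronan receptor, had 47.0, 15.5 and 446 against 86.0, 81.0 and 103. It was at -0.91 (SE 1.18) and turned to 1.54 without WT library 3. Cd55, decay-accelerating factor, was at -0.34 (SE 1.21), or 2.07 without WT library 1, with 18, 3 and 0 counts against 14, 14 and 13.

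**Figure D3:**
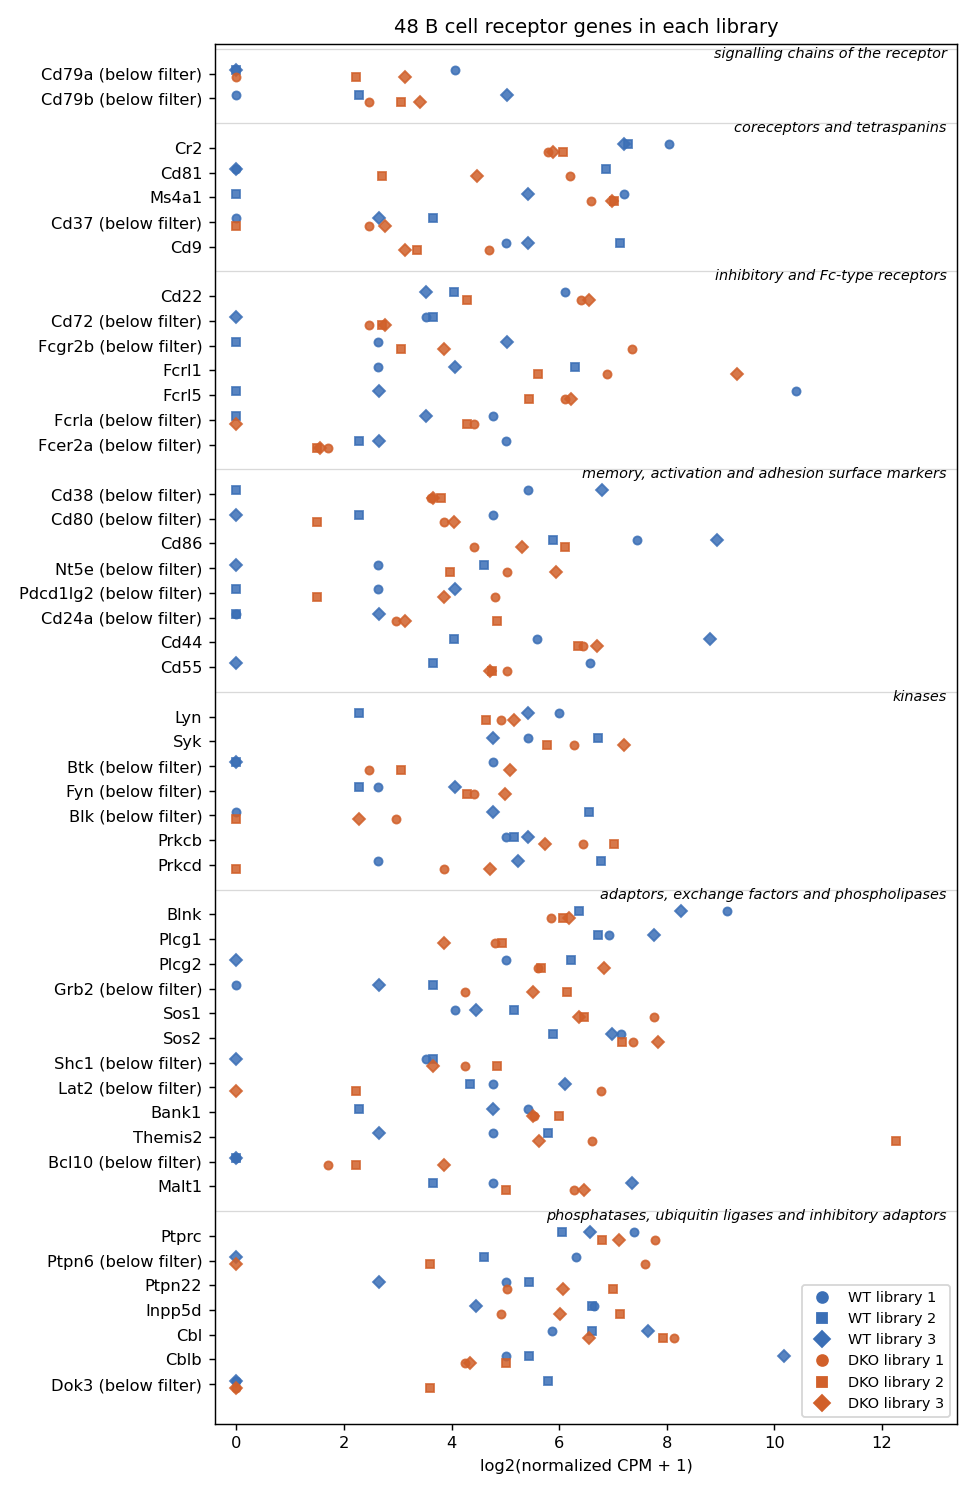
Normalized CPM of all 48 members in each library on a log2(value + 1) axis, grouped by role, with WT in blue and DKO in orange and the marker shape for the library number. Blue points spread wider than orange points for most genes: the median coefficient of variation of the 27 tested members was 0.838 in the WT libraries and 0.457 in the DKO libraries.

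Lyn, Syk and Btk, kinases at the start of the pathway, had overlapping groups, and Btk was below the filter. Lyn, the Src family kinase that starts signalling and also feeds inhibition, had 62.7, 3.86 and 42.0 normalized CPM in WT libraries against 29.4, 23.9 and 34.9 in DKO libraries. The fitted log2 difference, DKO against WT, was -0.28 (SE 1.03, adjusted p = 0.932 in edgeR), and 0.44 with library totals alone. Syk, the kinase that docks on phosphorylated CD79 chains, had 41.8, 104 and 26.3 against 76.9, 53.4 and 147, a log2 fold change of 0.67 (SE 0.96, edgeR adjusted p = 0.785). Btk, the kinase that activates phospholipase C gamma 2, had 5, 0 and 0 counts against 2, 4 and 17. Lyn and Btk did not separate the groups under any of the 5 scalings, while Syk lay higher in every DKO library with library totals alone.

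Fyn and Blk, the other Src family kinases listed, lay in opposite directions at low counts. Fyn had 1, 1 and 3 counts in WT libraries against 9, 10 and 16 in DKO libraries, or 8.28 ± 6.51 against 23.2 ± 6.77 normalized CPM (SD, n = 3 each). Its groups did not overlap under any of the 5 scalings, but it was not tested. Blk had 0, 24 and 5 against 3, 0 and 2, with 71.5% of its summed normalized CPM in WT library 2.

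Protein kinase C beta links the receptor to the NF-kB branch. Its gene was the only one of the 4 tested kinases whose groups stayed apart under each of the 5 scalings. Prkcb (chromosome 7, 122288751 to 122634402) had 31.3, 34.8 and 42.0 normalized CPM in WT libraries against 86.0, 129 and 52.3 in DKO libraries. Every DKO library lay above every WT library, at 89.0 ± 38.4 against 36.0 ± 5.45 (SD, n = 3 each). EdgeR gave a log2 fold change of 1.30 (SE 0.91, adjusted p = 0.553), between 0.91 and 1.56 with 1 library left out. Prkcd, the delta isoform that limits B cell expansion, had 1, 28 and 7 counts against 6, 0 and 13. Its log2 fold change of -1.95 (SE 1.32) was -0.69 without WT library 2.

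The adaptor Blnk and the phospholipase gene Plcg1 were at lower values in the DKO libraries. Blnk (chromosome 19, 40928927 to 40994535) had 554, 81.1 and 305 normalized CPM in WT libraries against 56.6, 66.3 and 71.7 in DKO libraries. All DKO values lay below all WT values, although WT library 2 was close, and the groups overlapped under upper quartile scaling and with library totals alone. This came to -2.26 on the log2 scale (SE 1.06, edgeR adjusted p = 0.416), or -1.56 without WT library 1. Plcg1 (chromosome 2, 160731300 to 160775760), the phospholipase C gamma isoform best known from T cells, had 120.1, 104 and 215 against 27.1, 29.4 and 13.6. That was 147 ± 60.0 in the WT group and 23.4 ± 8.59 in the DKO group (SD, n = 3 each), with no overlap. On the log2 scale the difference was -2.63 (SE 0.95, edgeR adjusted p = 0.390) and ran from -2.84 to -2.25 with 1 library left out. Exons of Plcg1 share 379 bases with Zhx3 and 248 with an antisense gene on the other strand, so part of its reads may belong to those genes.

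Plcg2, the isoform that B cells chiefly use, had a log2 value on the other side of 0. It had 31.3, 73.4 and 0 normalized CPM in WT libraries against 47.5, 49.7 and 112 in DKO libraries. WT library 2 lay above DKO libraries 1 and 2. The fitted log2 difference, DKO against WT, was 0.97 (SE 1.17, adjusted p = 0.741 in edgeR), reaching 2.13 when WT library 2 was left out and 0.40 when WT library 3 was. Whether the values of Plcg1 and Plcg2 differ from each other was not tested.

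Genes of the Grb2, Sos and Ras step were at higher values in the DKO libraries, though only the Sos genes were tested. Sos1 (chromosome 17, 80393751 to 80480453) had 15.7, 34.8 and 21.0 normalized CPM in WT libraries against 217, 86.5 and 81.3 in DKO libraries. All DKO values were above all WT values, at 128 ± 77.0 against 23.8 ± 9.86 (SD, n = 3 each). EdgeR gave a log2 fold change of 2.40 (SE 0.98, adjusted p = 0.393), or 1.80 without DKO library 1. Sos2, its paralog, had 141, 58.0 and 126 against 165, 144 and 229, a log2 fold change of 0.73 (SE 0.91, edgeR adjusted p = 0.750). DKO library 2 lay just above WT library 1 and the groups overlapped with the size factors of DESeq2.

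Grb2, the adaptor that carries Sos, and Shc1, which links receptors to Grb2, were below the filter. Grb2 had 0, 3 and 1 counts in WT libraries against 8, 38 and 23 in DKO libraries, and its groups did not overlap under any of the 5 scalings. Shc1 had 2, 3 and 0 against 8, 15 and 6, where DKO library 3 and WT library 2 were both at 11.6 normalized CPM. The filter on low counts kept Grb2 and Shc1 out of the main test. In the edgeR fit without that filter, 0 of the 48 members were called.

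Other adaptors were mixed. Bank1, a scaffold that binds Lyn and phospholipase C gamma 2, had 41.8, 3.86 and 26.3 normalized CPM in WT libraries against 45.2, 62.6 and 44.5 in DKO libraries. The groups were apart by a small gap, with a log2 fold change of 1.10 (SE 1.01, edgeR adjusted p = 0.659), 0.57 without WT library 2 and 1.79 without WT library 1. Lat2, a transmembrane adaptor also called NTAL, had 5, 5 and 13 counts against 48, 2 and 0 and was not tested. Themis2 (chromosome 4, 132781843 to 132796387), a Grb2-binding protein that tunes receptor signalling, had 5, 14 and 1 counts against 43, 2646 and 25. A share of 95.5% of its summed normalized CPM was thus in DKO library 2. Its log2 fold change, the highest of the members at 5.84 (SE 2.28, edgeR adjusted p = 0.390), was 1.28 without that library, and DESeq2 gave no adjusted p for it, nor for Cblb and Fcrl5.

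Of the complex that activates NF-kB, Malt1, the paracaspase, had 26.1, 11.6 and 163 normalized CPM in WT libraries against 76.9, 31.3 and 87.2 in DKO libraries. WT library 3 was the highest of all, and the log2 fold change of -0.0285 (SE 1.10) became 1.79 without it. Bcl10, an adaptor that binds Malt1, had 0 counts in each WT library and 1, 2 and 7 in the DKO libraries. A floor of 3 counts, taken over all WT libraries, came to 4.68 normalized CPM. The DKO mean of Bcl10, 6.50 normalized CPM, was 1.39 times that floor. It was thus at least 1.39-fold the WT level, a limit that covers counting error only.

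The phosphatases showed small or unsteady differences. Ptprc, the phosphatase CD45 that keeps Src family kinases ready, had 167, 65.7 and 94.5 normalized CPM in WT libraries against 219, 110.4 and 137 in DKO libraries. The groups overlapped, and the log2 difference was 0.51 (SE 0.91, edgeR adjusted p = 0.834). Ptpn22, a tyrosine phosphatase of Src family kinases, was at 1.48 (SE 1.04) with 6, 11 and 1 counts against 14, 69 and 34, or 0.84 without DKO library 2. Inpp5d, the inositol phosphatase SHIP-1, was at 0.10 (SE 1.00) and turned to -0.65 without DKO library 2. Ptpn6, the phosphatase SHP-1 that CD22 recruits, had 15, 6 and 0 counts against 85, 6 and 0, with 1 library of each group at 0, and was below the filter.

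The ubiquitin ligases Cbl and Cblb, which mark activated receptors and kinases for removal, had values on opposite sides. Cbl had 57.5, 96.6 and 200 normalized CPM in WT libraries against 278, 241 and 93.0 in DKO libraries, a log2 fold change of 0.79 (SE 0.98, edgeR adjusted p = 0.747), or 1.40 without WT library 3. Cblb (chromosome 16, 52031225 to 52208048) had 31.3, 42.5 and 1161 against 18.1, 31.3 and 19.4. Its DKO libraries lay below all WT libraries only narrowly, since WT library 1 and DKO library 2 were almost equal. The log2 fold change of -4.14 (SE 1.53, edgeR adjusted p = 0.390) rested on WT library 3, and without it the value was -0.68. Dok3, an inhibitory adaptor, had 0, 14 and 0 counts against 0, 6 and 0.

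**Figure D4:**
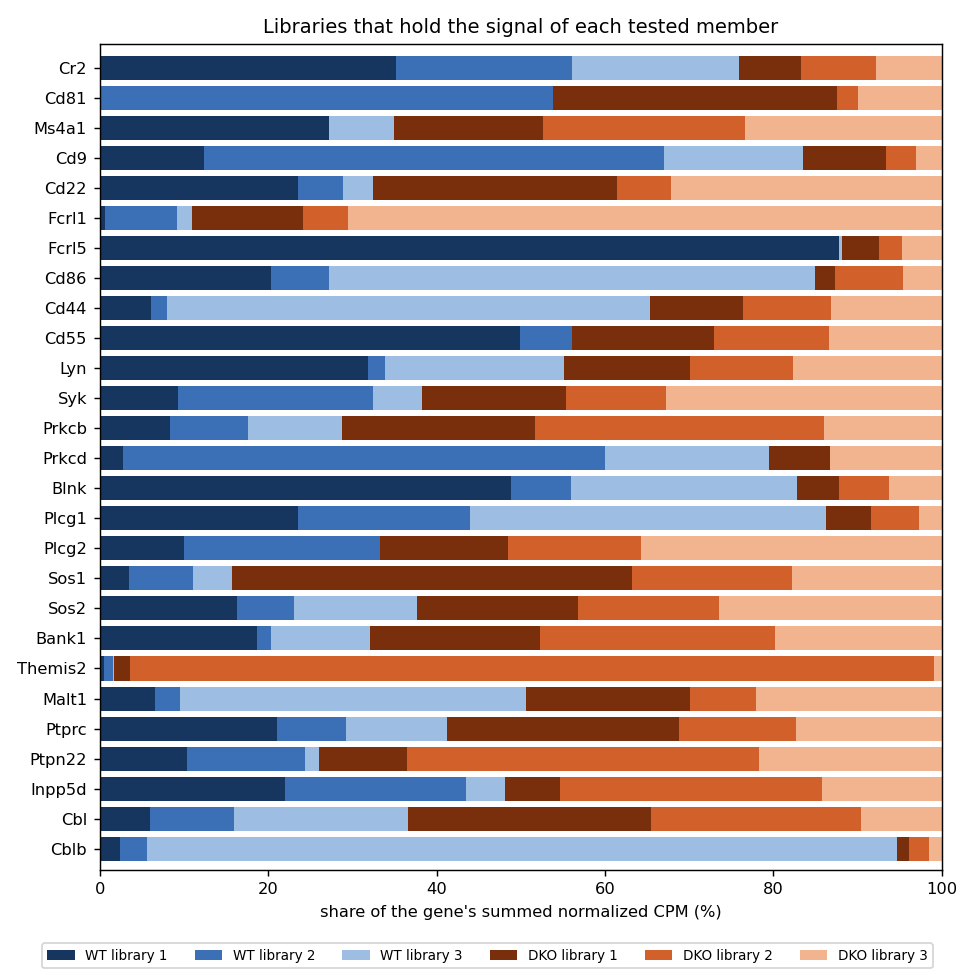
Share of each tested member's summed normalized CPM that each library holds, with WT libraries in blue shades and DKO libraries in orange shades, adding to 100% per gene. A single library holds 95.5% of Themis2 (DKO library 2), 89.1% of Cblb (WT library 3) and 87.8% of Fcrl5 (WT library 1).

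Concentration of a gene's reads in 1 library was frequent among the members, as it was among all genes tested. Of the 27 tested, 9 had over 50% of their summed normalized CPM in 1 library (33.3%, against 29.7% of all genes tested) and 3 had over 80% (11.1%, against 4.37%). The coefficient of variation was larger in the WT than in the DKO group for 22 of the 27 (81.5%, against 79.1% of all genes tested). Leaving out 1 library, with the same genes tested, moved the log2 fold change of 22 of the 27 by more than 1.5-fold. The 5 it did not move so far were Cr2, Prkcb, Plcg1, Sos2 and Ptprc. In all, 20 of the 27 kept their sign whichever library was left out.

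Per kilobase of exon, the highest mean levels, taken over the 6 libraries of both groups, were those of genes with 1 dominant library. Themis2 was at 276 normalized CPM per kilobase, Fcrl5 at 74.1 and Fcrl1 at 41.9, followed by Cd86 at 38.5 and Blnk at 31.5. Cr2 (15.2) and Ms4a1 (14.5) ranked 11 and 12 of 48. The kinases Lyn (8.05), Syk (8.01) and Prkcb (8.17) were close in this mean but not within the groups. In the WT group their levels per kilobase were 8.88, 6.14 and 4.71, and in the DKO group they came in the reverse order at 7.22, 9.88 and 11.6. This change of order was not tested, and for Lyn and Syk the groups overlapped. Bcl10 had the lowest mean over both groups, 0.712, with 0 in WT; in the DKO group it was at 1.42, above Fcer2a (0.651) and Cd37 (0.978).

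Of 80 further genes of the pathway, listed by role, 55 were tested and of these 26 lay on the higher side of 0 and 29 on the lower (median log2 fold change -0.08). None passed the adjusted test in edgeR, while at an unadjusted p under 0.05 there was 1 higher (1.82%, against 5.49% of all genes tested) and 3 lower (5.45%, against 6.59%). DESeq2 called 1 higher and 1 lower of the 53 with an adjusted p (1.89% each, against 2.57% and 4.51%). Among 20 other surface receptors (12 tested, median 0.09), Ceacam1, an inhibitory adhesion receptor, had 2, 5 and 1 counts in WT libraries against 15, 35 and 23 in DKO libraries. Its groups did not overlap (log2 fold change 1.97, SE 0.98), nor did those of Pecam1, also an inhibitory adhesion receptor and a member of the endothelial marker list (1.88, SE 0.98, and 2.82 without WT library 1). The tetraspanin gene Cd82 was at -3.01 (SE 1.38), and at -0.89 once WT library 1 was left out.

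Among 38 other proximal kinases, adaptors and phosphatases (25 tested, median -0.33), the exchange factor gene Vav2 had 86, 225 and 13 counts in WT libraries against 33, 26 and 37 in DKO libraries. It was at -2.83 on the log2 scale (SE 1.23, DESeq2 adjusted p = 0.0416), or -1.995 without WT library 2, and the groups overlapped. Pik3ap1, the adaptor BCAP that brings in phosphoinositide 3-kinase, lay higher in all DKO libraries at 2.22 (SE 1.03). Among 22 Ras, MAP kinase and cytoskeletal effectors (18 tested, median 0.10), the small GTPase gene Rap1b had 1, 2 and 3 counts against 61, 38 and 28, without overlap. It was at 3.16 on the log2 scale (SE 1.05, edgeR adjusted p = 0.390, DESeq2 adjusted p = 0.0367), and between 2.68 and 3.67 with 1 library left out. The kinase gene Map2k1 was at -2.13 (SE 1.47) and the GTPase gene Nras at 1.54 (SE 1.08), with overlapping groups. With 1 library left out, Map2k1 ran from -3.64 to -1.26 and Nras from 1.05 to 2.78.

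Exons of 11 of the 48 members share bases with another annotated gene, in each case on the opposite strand, so that without a stated strand setting their reads cannot be told apart. Besides Plcg1 these include Cd22, Cd9, Lyn, Fcgr2b, Ptpn6, Cd72 and Lat2. Cd72 shares 1423 bases with Tesk1 and Lat2 952 with Rfc2.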

How the data were processed

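RNA from sorted cells was made into amplified cDNA enriched for polyadenylated RNA with a kit for single-cell RNA, per the labels' protocols. CASAVA, STAR, edgeR, R 3.6.3 and mm10 are named in the submitters' processing notes, without roles. The authors deposited raw counts of reads for each symbol in 6 libraries. How reads were counted, with which strand setting and which annotation release, is not given in the sources used here. Columns were matched to samples by name, with 0 left over.

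Tests on the counts used edgeR 4.0.16 in R 4.3.3 with limma 3.58.1, over all 6 libraries and without a covariate. Genes passed filterByExpr (minimum count 10), TMM scaling was applied, and quasi-likelihood F tests with the robust option were adjusted by Benjamini-Hochberg over 8895 genes (threshold 0.05). The standard error is the log2 difference over the root of F. Normalized CPM divide counts by the effective library size. The steps were tested on simulated data. Amplified reads without molecular identifiers are not independent molecules, so floors cover counting error only.

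The 48 members, the 80 further pathway genes and the 11 marker lists were chosen with earlier results of these data known. Values in every library are given for 17 core genes fixed by name and for tested members with an unadjusted p under 0.05, with groups that did not overlap, or with over 80% of their summed normalized CPM in 1 library. They are also given for further members, chosen after their values were seen. Up to 3 genes with the smallest p are named from each of the 3 lists of further pathway genes; one that the rule picks is not reported here. GENCODE mouse release 21 (mm10) gave positions and exonic lengths, matched by symbol for all 48. Python 3.11.15 with scipy 1.17.1 was used. Alternatives were 4 other scalings, other filters, DESeq2 1.42.0, limma-voom (quality weights), the robust option off, the replicate number as a block, and each library left out. The counts of members above 0 and of members without overlap were followed across settings only after the data were seen.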

Additional observations from a re-analysis of the deposited data

How the results depend on the processing

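The count of members called, 0 in the edgeR test, was 0 under each alternative run except DESeq2, which called 1 member, 2 of the further pathway genes and 601 genes in all; 130 genes, none of them a member, were called without the filter on low counts. Plcg1 was that member (log2 fold change -2.77). The median of the tested members, 0.10, moved with the setting: 0.37 under upper quartile scaling, 0.92 with library totals alone, 0.43 without the filter, 0.30 at a mean CPM of at least 10, 0.73 in limma-voom and 0.78 with the replicate block, but -0.0302 with the size factors of DESeq2 and -0.0306 in DESeq2, which turned its sign; with 1 library left out it ran from 0.14 to 0.49. Members whose DKO libraries lay above all WT libraries numbered 2 with the size factors of DESeq2 and 11 with library totals alone, against 4. Those below numbered 3 under upper quartile scaling and 2 with library totals alone, against 5. Shares of all genes tested were computed for TMM scaling only (12.8% higher and 6.39% lower). Whether the members moved differently from other genes was thus not tested.

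Signs turned for members near 0 or resting on 1 library; the cause was not tested. Malt1 went to 0.012 with TMMwsp, 0.22 with upper quartile scaling, 0.70 with library totals alone, 0.33 without the filter, 0.15 at a mean CPM of at least 10 and 0.28 in limma-voom. Inpp5d went to -0.0302 with the size factors of DESeq2 and -0.0306 in DESeq2. Cd81 went to 0.079 with upper quartile scaling, 0.59 with library totals alone and 1.66 in limma-voom. Cd55 went to 0.38 and Lyn to 0.44 with library totals alone; Lyn was at 0.060 without the filter. In limma-voom Fcrl5 was at 0.98 and Cd55 at 1.09. Ranges with 1 library left out were -1.54 to 6.64 for Cd81, -3.47 to 4.54 for Fcrl5, -1.45 to 1.54 for Cd44, -0.91 to 2.07 for Cd55, -0.83 to 0.41 for Lyn, -0.54 to 1.79 for Malt1 and -0.65 to 0.49 for Inpp5d.

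With the replicate block 0 genes were called, as without it, and Cd81 (1.86), Fcrl5 (1.94), Cd44 (0.38), Cd55 (0.78), Lyn (0.16) and Malt1 (0.64) turned sign. Deviations of same-numbered libraries from their group means correlated at 0.023, 0.026 and 0.037, and those of other WT and DKO pairs at -0.024 to -0.004. Each library thus correlated best with its own number, but all of these correlations were small. Deviations from a group mean cancel within the group, so these values are not independent and cannot decide on pairing. The sample titles give only a replicate number, so whether same-numbered libraries were paired cannot be told.

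Depth limits what can be read: 21 of the 48 members were not tested, among them Cd79a, Cd79b, Btk and the memory markers Cd80, Pdcd1lg2 and Nt5e, and 3 counts in a library were worth 5.52 to 15.8 normalized CPM.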
